A study of Mus musculus with 12 samples.

Results

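The 9 genes described here stood on opposite sides of the culture level in the lymphoma cells of each dissemination route: Magohb, Tubb3, Gja1, Vopp1, Myo5c, Dnah1, Zc3h6, Sspn and Iqsec2. They were chosen by their measured expression, which differed from culture one way in the lymphatic group and the other way in the hematogenous group. Their differences, and the side of the threshold on which they fall, are therefore given as description and not as test results. All 9 symbols were matched to an Ensembl ID of the count tables, and all 9 passed the filter on low counts. They belong to 65 genes, of 13535 tested, that passed an adjusted p of 0.05 in both comparisons with culture in opposite directions, which is 0.48% of tested genes. Of these 65 genes, 29 were higher in lymphatic and lower in hematogenous libraries (0.214% of tested genes), and 36 the reverse (0.266%).

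Eµ-Myc lymphoma is a mouse B cell tumour in which the immunoglobulin heavy chain enhancer drives Myc. The lymphatic group holds 4 libraries of sorted lymph node lymphoma cells that arrived through lymphatic vessels, taken on day 11 after tumour injection. The hematogenous group holds 4 libraries of sorted lymph node lymphoma cells that arrived through the blood, taken on day 18, and the culture group holds 4 libraries of the same lymphoma taken directly from culture. Hosts were C57BL/6J mice. All groups carry the Eµ-Myc transgene, and no other allele or agent is named. Route and day change together and cannot be told apart. Lymph node is also the stated tissue of the cultured cells, so groups were taken from the titles. Whether replicates are separate animals or separate cultures is not stated, and the spread behind every p-value here may therefore be technical.

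Poly(A) RNA was sequenced and reads were counted per gene, with 5286775 to 25302016 counts assigned to genes per library. Levels are CPM, counts scaled to the same assigned total in every library with TMM size factors, and differences are log2 values from edgeR with their SE. Summed CPM of 8 B lineage markers ran from 2548 to 2888 in lymphatic, from 3610 to 3777 in hematogenous and from 2766 to 2800 in culture libraries. Summed CPM of 10 T cell markers ran from 20.2 to 88.1, from 6.02 to 15.6 and from 0 to 0.807 in the same order, and the highest value was that of lymphatic 4. The sum of 11 myeloid markers ran from 32.0 to 74.1 CPM in lymphatic, highest in lymphatic 4, from 29.1 to 34.5 in hematogenous and from 17.5 to 22.5 in culture libraries. In culture, 5 of these T cell markers had 0 counts, among them Trbc2, Cd8a and Cd4. Of the 6 myeloid markers tested, 4 were higher and 2 lower than culture in each lymph node group. Summed CPM of 6 NK cell markers ran from 1.01 to 7.93 in lymphatic, from 0 to 1.66 in hematogenous and from 18.7 to 22.8 in culture libraries. For 6 erythroid markers the sums ran from 2.30 to 15.1, from 3.11 to 6.36 and from 11.3 to 29.9 in the same order. Lymphatic 4 stood apart from the other libraries, with 16.1% of its counts in ribosomal protein genes against 7.63% to 9.92% in the other 11.

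The listed genes do not form a pathway. Magohb encodes a core protein of the exon junction complex, which is laid on messenger RNA at splicing and is read by export, translation and nonsense-mediated decay factors. Tubb3 encodes the class III beta-tubulin known from neurons, Myo5c a class V myosin that moves secretory cargo in gland cells, and Dnah1 a heavy chain of the inner dynein arm that bends cilia and sperm tails. Gja1 encodes connexin 43, which forms gap junctions between cells, and Sspn encodes sarcospan, a membrane protein of the dystrophin-glycoprotein complex known from muscle. Iqsec2 encodes an exchange factor for ARF GTPases known from synapses. Vopp1 encodes a vesicle membrane protein that binds the tumour suppressor WWOX in human cells, and Zc3h6 encodes a zinc finger protein of the CCCH type.

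Magohb has a copy on another chromosome, Magoh, whose protein is nearly the same, so their coding sequences are shown for what they mean for counting. The coding sequences are 447 bases in Magohb, on chromosome 6, and 441 bases in Magoh, on chromosome 4, stop codon included. They agree at 357 of 441 aligned bases (81.0%), and the longest run without a difference is 17 bases, against reads of 120 bases. The stretch of 120 bases with the fewest differences holds 17, shown in capitals. It starts at coding base 104 of Magohb and 98 of Magoh, counted from the start codon in the GENCODE M21 transcripts.
Magohb: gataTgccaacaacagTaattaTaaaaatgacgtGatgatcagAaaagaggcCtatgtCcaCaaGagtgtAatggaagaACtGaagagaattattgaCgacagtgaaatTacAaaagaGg
Magoh: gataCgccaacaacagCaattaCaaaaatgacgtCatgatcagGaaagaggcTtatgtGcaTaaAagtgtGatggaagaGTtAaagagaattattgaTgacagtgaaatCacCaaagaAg
Of the transcript sequences compared, Magohb-205 and Magoh-201 shared no window of 120 bases exactly with each other's gene. Magohb-205 shared 51.7% of its windows with Gm44958, a pseudogene annotated on the same strand over the same place. Gm44958 itself held 0.0240 CPM in lymphatic, 0.0210 in hematogenous and 0.0194 in culture libraries on average. Reads that fall on both annotations may be lost from Magohb in every library, and this was not tested. Zc3h6 shared 2.54% of its windows with the overlapping transcript Gm14027, and the other 7 listed genes shared none with another gene.

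The promoters are shown for Magohb and Tubb3 of one direction and Vopp1 and Zc3h6 of the other, picked as examples after their values were seen. Each sequence is the 250 bases before the RefSeq transcription start, on build GRCm38.p6, read 5′ to 3′ on the gene's strand. The reads were aligned to GRCm39, so these positions are not those of the count tables. Capitals mark the GC box GGGCGG or its reverse complement CCGCCC.
Magohb, chr6:131293245-131293494, minus strand: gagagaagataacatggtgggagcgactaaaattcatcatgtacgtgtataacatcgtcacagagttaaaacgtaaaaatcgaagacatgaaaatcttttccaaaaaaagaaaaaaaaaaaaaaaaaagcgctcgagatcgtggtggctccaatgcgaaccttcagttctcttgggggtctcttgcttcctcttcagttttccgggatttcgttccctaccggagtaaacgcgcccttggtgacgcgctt
Tubb3, chr8:123411303-123411552, plus strand: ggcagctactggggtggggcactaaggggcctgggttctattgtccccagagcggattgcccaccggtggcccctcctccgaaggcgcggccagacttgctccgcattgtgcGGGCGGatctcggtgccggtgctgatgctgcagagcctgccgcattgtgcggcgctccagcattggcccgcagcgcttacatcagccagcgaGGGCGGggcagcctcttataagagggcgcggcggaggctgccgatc
Vopp1, chr6:57825126-57825375, minus strand: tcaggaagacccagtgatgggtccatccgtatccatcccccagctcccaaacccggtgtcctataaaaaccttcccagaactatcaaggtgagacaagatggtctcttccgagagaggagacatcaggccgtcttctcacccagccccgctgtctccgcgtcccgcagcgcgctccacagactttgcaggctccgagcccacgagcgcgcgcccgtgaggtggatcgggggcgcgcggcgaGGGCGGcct
Zc3h6, chr2:128967152-128967401, plus strand: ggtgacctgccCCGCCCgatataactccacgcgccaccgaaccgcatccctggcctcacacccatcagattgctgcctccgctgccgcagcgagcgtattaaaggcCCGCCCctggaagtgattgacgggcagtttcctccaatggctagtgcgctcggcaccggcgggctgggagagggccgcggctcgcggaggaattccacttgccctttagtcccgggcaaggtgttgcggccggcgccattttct
Windows of 300 bases, reaching 50 bases past the start, were found for all 9 listed genes, 11 windows in all since Sspn and Iqsec2 have a pair each. The E-box CACGTG, the motif that MYC with MAX binds, was in 0 of these 11 windows and in 7.15% of all 32851 mouse windows. The GC box was in 6 of 11 windows and in 35.7% of all, and the CCAAT box (CCAAT or ATTGG) in 6 of 11 and in 37.4% of all. The CCAAT box windows belong to genes of both directions, Magohb and Tubb3 as well as Myo5c, Zc3h6, Sspn and Iqsec2. A match is a description of letters, and no match says only that these letters are absent from the window.

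Magohb, Tubb3 and Gja1 were higher than culture in the lymphatic group and lower than culture in the hematogenous group. Vopp1, Myo5c, Dnah1, Zc3h6, Sspn and Iqsec2 lay the other way round. All 9 were called in the comparison of lymphatic with culture, where 26.4% of tested genes were, all 9 in that of hematogenous with culture (27.8%), and all 9 between the routes (22.3%). CPM of the groups did not overlap for 9 of 9 genes between lymphatic and culture (30.1% of tested genes), for 7 of 9 between hematogenous and culture (43.6%) and for 9 of 9 between the routes (24.6%). These counts follow from how the genes were listed, and nothing is read from them. The plot of CPM by library shows every value.

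**Figure D1:**
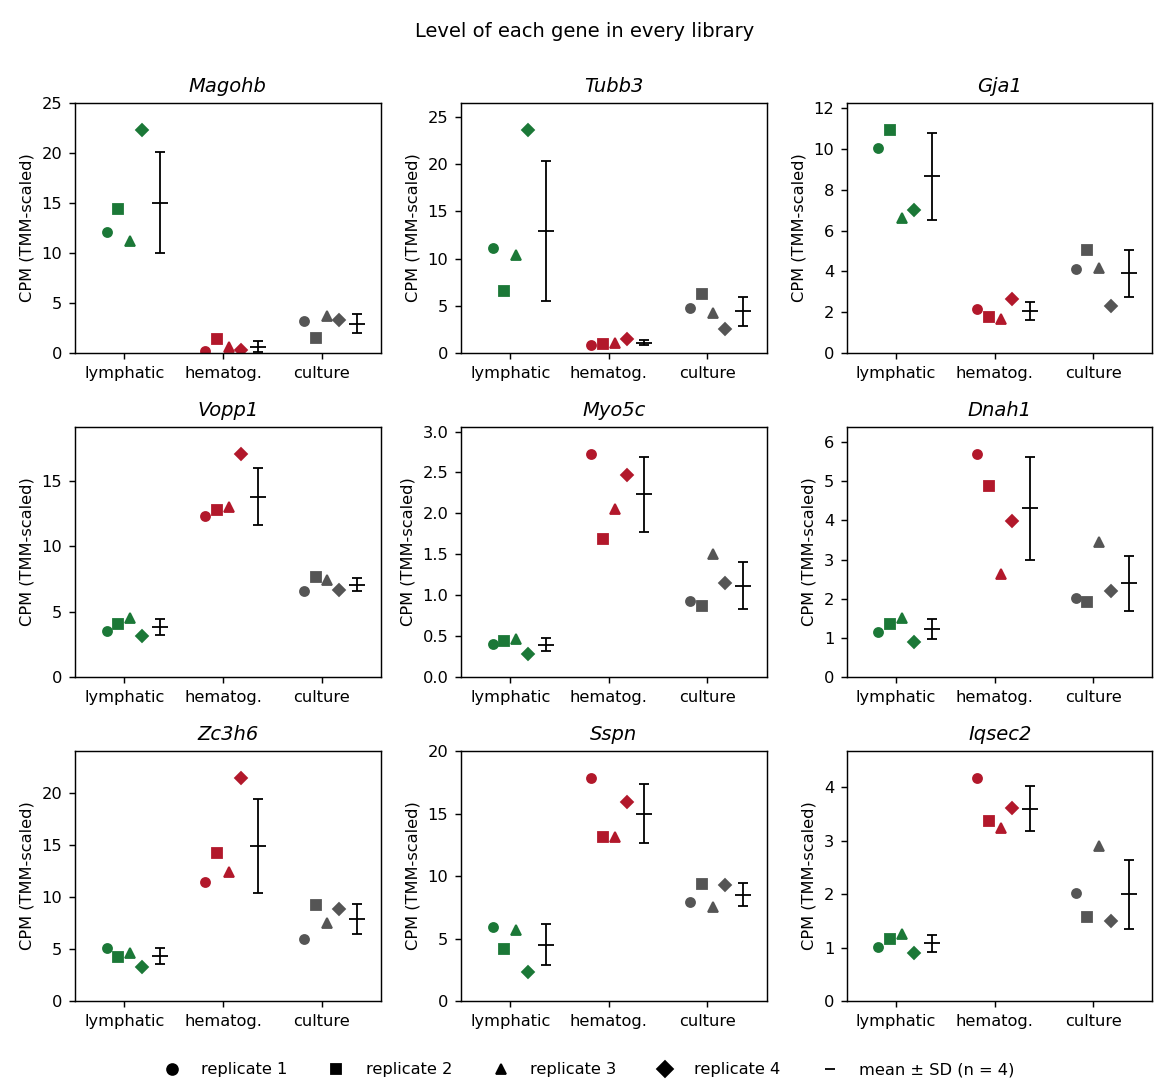
CPM of the 9 genes in the 4 libraries each of the lymphatic, hematogenous and culture groups, with the marker shape giving the replicate number and the bar the mean ± SD. The culture values sit between the lymph node groups in every panel, with overlap between hematogenous and culture libraries only for Gja1 and Dnah1.

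Magohb, the exon junction gene, had the widest span. It stood at 12.2, 14.5, 11.3 and 22.4 CPM in lymphatic 1 to 4, at 0.241, 1.43, 0.587 and 0.380 CPM in hematogenous 1 to 4, and at 3.19, 1.56, 3.76 and 3.34 CPM in culture 1 to 4. The groups do not overlap, although hematogenous 2 and culture 2 lie close together. The log2 difference was 2.31 ± 0.359 for lymphatic over culture, −2.11 ± 0.457 for hematogenous over culture and 4.42 ± 0.429 for lymphatic over hematogenous, which is 21.5-fold. Without hematogenous 2 the difference between the routes was log2 5.21. The hematogenous values rest on few reads, with 3, 17, 6 and 2 counts, and the exact 95% Poisson interval of the lowest count ran from 0.242 to 7.22 counts. Intervals of this kind cover counting error only. Without hematogenous 2, the library with 17 counts, the log2 difference of the hematogenous group from culture was −2.90. Without hematogenous 1 that difference was −1.77, and the difference between the routes was 4.08. Without lymphatic 4, the highest library, the log2 difference of the lymphatic group from culture was 2.04.

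Magoh, the copy, was far more abundant and was not used to choose the list. It stood at 124, 131, 97.7 and 239 CPM in lymphatic 1 to 4, at 93.0, 97.6, 112 and 99.0 CPM in hematogenous 1 to 4, and at 114, 91.0, 114 and 107 CPM in culture 1 to 4. All groups overlap, and lymphatic 4 is the highest library. No difference of Magoh passed the edgeR threshold, with log2 0.47 ± 0.214 for lymphatic over culture (adjusted p = 0.122), −0.09 ± 0.215 for hematogenous over culture (adjusted p = 0.815) and 0.56 ± 0.214 between the routes (adjusted p = 0.0755). Magoh passed it without lymphatic 3, the lowest lymphatic library, at log2 0.63 against culture (adjusted p = 0.0309) and 0.72 between the routes (adjusted p = 0.0204), and with no filter on low counts, at 0.49 (adjusted p = 0.0165) and 0.56 (adjusted p = 0.00517). Without lymphatic 4 the Magoh difference from culture was 0.14 and that between the routes 0.22, neither called. Per kilobase of annotated exon, mean levels were 8.76, 0.384 and 1.72 CPM for Magohb in lymphatic, hematogenous and culture libraries, against 192, 130 and 138 CPM for Magoh. When the counts of both genes were summed as one, the difference from culture was log2 0.57 in the lymphatic group (adjusted p = 0.0608) and −0.12 in the hematogenous group (adjusted p = 0.738). Opposite calls were seen in Magohb but not in the sum, of which Magohb was a small share.

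Tubb3, the neuronal beta-tubulin, stood at 11.2, 6.62, 10.3 and 23.6 CPM in lymphatic 1 to 4, at 0.883, 1.01, 1.08 and 1.52 CPM in hematogenous 1 to 4, and at 4.74, 6.25, 4.30 and 2.54 CPM in culture 1 to 4. The groups do not overlap, but lymphatic 2 lies just above culture 2, and lymphatic 4 is far above the other lymphatic libraries. Its log2 difference was 1.55 ± 0.360 for lymphatic over culture, −2.02 ± 0.437 for hematogenous over culture and 3.57 ± 0.420 between the routes. The hematogenous values rest on few reads, with 11, 12, 11 and 8 counts in hematogenous 1 to 4. Without lymphatic 4, the library with the highest share of ribosomal protein counts and the highest T cell marker sum, the difference between lymphatic and culture was log2 1.07. Without lymphatic 4 and culture 4 together it was 0.88, and the part of the T cell markers in it was not tested.

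Gja1, which encodes connexin 43, stood at 10.01, 10.9, 6.62 and 7.03 CPM in lymphatic 1 to 4, at 2.17, 1.77, 1.66 and 2.66 CPM in hematogenous 1 to 4, and at 4.12, 5.04, 4.19 and 2.30 CPM in culture 1 to 4. Lymphatic libraries lie above all others, while culture 4 lies below hematogenous 4. The log2 difference was 1.16 ± 0.256 for lymphatic over culture, −0.94 ± 0.284 for hematogenous over culture and 2.1 ± 0.272 between the routes. Counts of Gja1 in hematogenous libraries ran from 14 to 27. Connexin 43 is abundant in the stromal cells of many tissues. Summed CPM of 11 stromal markers ran from 0.0562 to 0.399 in lymphatic, from 0 to 0.0842 in hematogenous and from 0 to 0.922 in culture libraries. Of these markers 5 had 0 counts in all lymphatic libraries, namely Pdpn, Pdgfrb, Col3a1, Ccl19 and Ccl21a, and 0 were abundant enough to be tested. The sum of 10 endothelial markers ran from 80.9 to 115 CPM in lymphatic, from 140 to 168 in hematogenous and from 77.9 to 81.2 in culture libraries. Prox1, Emcn and Cldn5 had 0 counts in lymphatic libraries, Lyve1, Prox1, Flt4, Emcn and Cldn5 in hematogenous libraries, and Cldn5 in culture libraries. Only 2 of these 10 markers were tested, and both were lower in lymphatic than in hematogenous libraries. The part of endothelial cells in the Gja1 levels was not tested. Fewer cells of a type and less RNA per cell cannot be told apart in bulk libraries.

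Vopp1, the WWOX-binding vesicle protein, was lower in the lymphatic and higher in the hematogenous group. It stood at 3.52, 4.11, 4.49 and 3.15 CPM in lymphatic 1 to 4, at 12.4, 12.8, 13.01 and 17.1 CPM in hematogenous 1 to 4, and at 6.61, 7.64, 7.42 and 6.68 CPM in culture 1 to 4. The groups do not overlap, and hematogenous 4 lies above the other hematogenous libraries. The log2 difference was −0.89 ± 0.174 for lymphatic over culture, 0.96 ± 0.171 for hematogenous over culture and −1.85 ± 0.172 between the routes. Lancl2, a lanthionine synthetase-like gene, overlaps Vopp1 on the other strand. It averaged 34.3 CPM in lymphatic, 42.9 in hematogenous and 18.0 in culture libraries, higher than culture in both groups (log2 0.93 ± 0.161, adjusted p = 7.65e-04, and 1.25 ± 0.162, adjusted p = 4.97e-05, edgeR). The libraries were stranded, but whether counting used the strand is not given in the sources used here. Reads of Vopp1 and Lancl2 on shared bases are uncertain for that reason. The same holds for Zc3h6, which Gm10762 overlaps on the other strand, at 5.04, 5.66 and 5.31 CPM in lymphatic, hematogenous and culture libraries. Dnah1 and Sspn are also overlapped on the other strand, by Gm35823 and Sspnos, which averaged at most 0.152 CPM in a group. On the same strand, Gm43931 overlaps Sspn, at 0.130, 0.287 and 0.218 CPM in lymphatic, hematogenous and culture libraries. Gm20388 overlaps Tubb3 on the same strand in the older annotation and has no values in the count tables.

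Per kilobase of annotated exon, Zc3h6 averaged 0.761, 2.63 and 1.39 CPM in lymphatic, hematogenous and culture libraries, and Sspn 0.908, 3.01 and 1.71 CPM. Zc3h6 stood at 5.07, 4.27, 4.65 and 3.26 CPM in lymphatic 1 to 4, at 11.5, 14.2, 12.4 and 21.5 CPM in hematogenous 1 to 4, and at 5.99, 9.21, 7.52 and 8.87 CPM in culture 1 to 4. Sspn, the sarcospan gene, stood at 5.95, 4.15, 5.68 and 2.36 CPM in lymphatic 1 to 4, at 17.9, 13.1, 13.1 and 15.95 CPM in hematogenous 1 to 4, and at 7.93, 9.38, 7.52 and 9.33 CPM in culture 1 to 4. Neither gene overlaps between groups, lymphatic 4 is the lowest library for both, and the highest library is hematogenous 4 for Zc3h6 and hematogenous 1 for Sspn. The log2 difference of Zc3h6 was −0.86 ± 0.232 for lymphatic over culture, 0.91 ± 0.227 for hematogenous over culture and −1.77 ± 0.229 between the routes. For Sspn it was −0.92 ± 0.249, 0.82 ± 0.243 and −1.74 ± 0.246.

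Myo5c, Dnah1 and Iqsec2, the motor genes and the ARF exchange factor, had few counts. Myo5c stood at 0.281 to 0.473 CPM in lymphatic, 1.68 to 2.73 CPM in hematogenous and 0.869 to 1.5 CPM in culture libraries, on 5 to 11, 13 to 34 and 5 to 14 counts. Its log2 difference was −1.47 ± 0.327 for lymphatic over culture, 0.98 ± 0.294 for hematogenous over culture and −2.45 ± 0.307 between the routes, the largest of this direction among the listed genes. Dnah1 stood at 1.15, 1.36, 1.5 and 0.899 CPM in lymphatic 1 to 4, at 5.70, 4.88, 2.64 and 3.99 CPM in hematogenous 1 to 4, and at 2.02, 1.91, 3.44 and 2.19 CPM in culture 1 to 4. Hematogenous 3 falls below culture 3, so these groups overlap, and the log2 differences were −0.97 ± 0.306, 0.85 ± 0.293 and −1.82 ± 0.296. Iqsec2 stood at 0.899 to 1.26 CPM in lymphatic, 3.23 to 4.17 CPM in hematogenous and 1.5 to 2.90 CPM in culture libraries. Its log2 differences were −0.90 ± 0.267, 0.83 ± 0.256 and −1.73 ± 0.257, and its groups do not overlap.

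**Figure D2:**
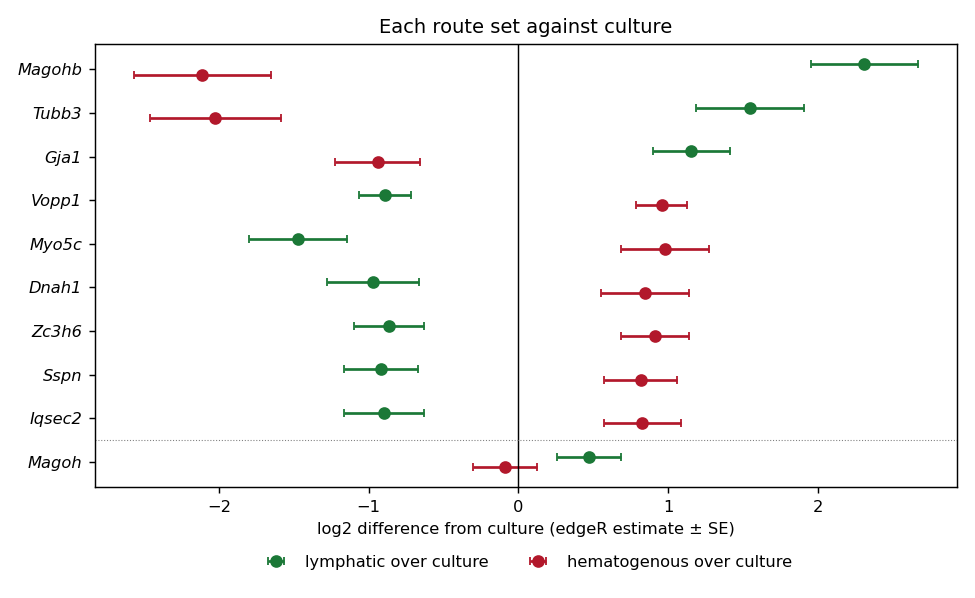
Log2 difference from culture (edgeR estimate, horizontal axis, bars ± SE) of each of the 9 genes and, under the dotted line, of Magoh, for lymphatic and for hematogenous libraries, both against the same 4 culture libraries. Magohb spans from 2.31 to −2.11, while the genes from Vopp1 to Iqsec2 lie near −0.9 and 0.9 apart from Myo5c at −1.47, and Magoh lies at 0.47 and −0.09.

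The comparisons with culture share the culture libraries, so an error in the culture level moves both the same way. The genes were chosen on these same values, so how often their calls recur describes the dependence on the fit and lends the differences no support. Opposite calls in both comparisons held for Tubb3, Vopp1 and Zc3h6 in 19 of 19 alternative fits, and for Magohb in 19 of 20, the exception being the sum with Magoh. They held in 15 of 19 for Sspn, 13 for Gja1, 13 for Myo5c, 11 for Iqsec2 and 7 for Dnah1. Without culture 1, 4 of the 9 genes were called in both, and 5 without culture 2, without culture 3 or without hematogenous 1. No sign was reversed in any of these fits. For description, among genes just inside the threshold, the larger of the adjusted p values was 0.0446 for Dnah1 and, among genes not listed, 0.0476 for Swap70, 0.0467 for Uchl5, 0.0452 for Sike1 and 0.0450 for Nme7. Just outside were Irf2 at 0.0516, Cwf19l1 at 0.0529, Dnaja1 at 0.0530, Dars at 0.0536 and Inpp5d at 0.0546. By the smaller of its differences from culture, in absolute log2, a listed gene reached at least 0.82, the value of Sspn. Among the unlisted genes of the 65, Dntt at 1.66, Gm47283 at 1.37 and Ighd at 0.97 did so too, named here after their values were seen.

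Over the 12 libraries, log2 CPM of the listed genes within a direction were closely alike. The choice of genes fixed the order of the groups within each direction and so leads to such likeness. No correlation within groups is given, and nothing is read from these values. Pearson's r ran from 0.84 to 0.90 over the 3 pairs of Magohb, Tubb3 and Gja1, from 0.85 to 0.97 over the 15 pairs of the other 6 genes, and from −0.96 to −0.81 over the 18 pairs across directions. The pairs share library and depth, and no p is given. The genes most like each listed gene, by r over the 12 libraries among genes with a mean of at least 1 CPM, had r of 0.943 to 0.992. For Magohb they were Tmem173, which encodes the DNA sensor adaptor STING (r = 0.977), and Rcl1, a ribosomal RNA processing factor (0.965). For Tubb3 they were Wdr74, a ribosome assembly factor (0.951), and the nuclear pore gene Nup85 (0.950), and for Gja1 they included the kinase gene Dyrk3 (0.943). Vopp1 was most like Irak1, a kinase of Toll-like receptor signalling (0.982), and Ighd, the IgD heavy chain (0.979). Ighd averaged 161 CPM in lymphatic, 885 in hematogenous and 315 in culture libraries. Myo5c was most like Iqsec2 (0.967) and the survival gene Bcl2 (0.962), Dnah1 like Iqsec2 (0.958) and Tef (0.957), and Iqsec2 like Myo5c and Trim5 (0.967 each). Zc3h6 was most like Vopp1 (0.966) and the channel gene Lrrc8d (0.960), and Sspn like Heg1, a membrane receptor gene (0.992), and the phosphatase subunit gene Ppp6r2 (0.987). Of the 14 distinct genes found by this measure that are not listed, 10 were called in both comparisons with culture in opposite directions, against 0.48% of tested genes. Likeness to genes chosen for this pattern produces that count, and nothing is read from it.

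The families and partners of the listed genes, which the listing did not use, were then examined. They make 9 lists of 167 genes, of which 165 were matched and 108 tested. Of the 108, 16 were higher and 19 lower in lymphatic than in culture libraries (32.4%, against 26.4% of all tested genes, median log2 −0.04 against 0.04). In hematogenous libraries 14 were higher and 16 lower than culture (27.8%, against 27.8%, median 0.00 against 0.00), and between the routes 9 were higher and 15 lower in lymphatic (22.2%, against 22.3%, median 0.01 against 0.03). None of the 108 was called in both comparisons with culture in opposite directions, a call that 0.48% of tested genes had. So rare a call would often be absent from 108 genes, and nothing is read from this. These counts depend on the libraries fitted. In fits of the compared groups alone, 23, 63 and 13 of the relatives were called in the same order of comparisons, and 2600, 6344 and 1734 of all genes.

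**Figure D3:**
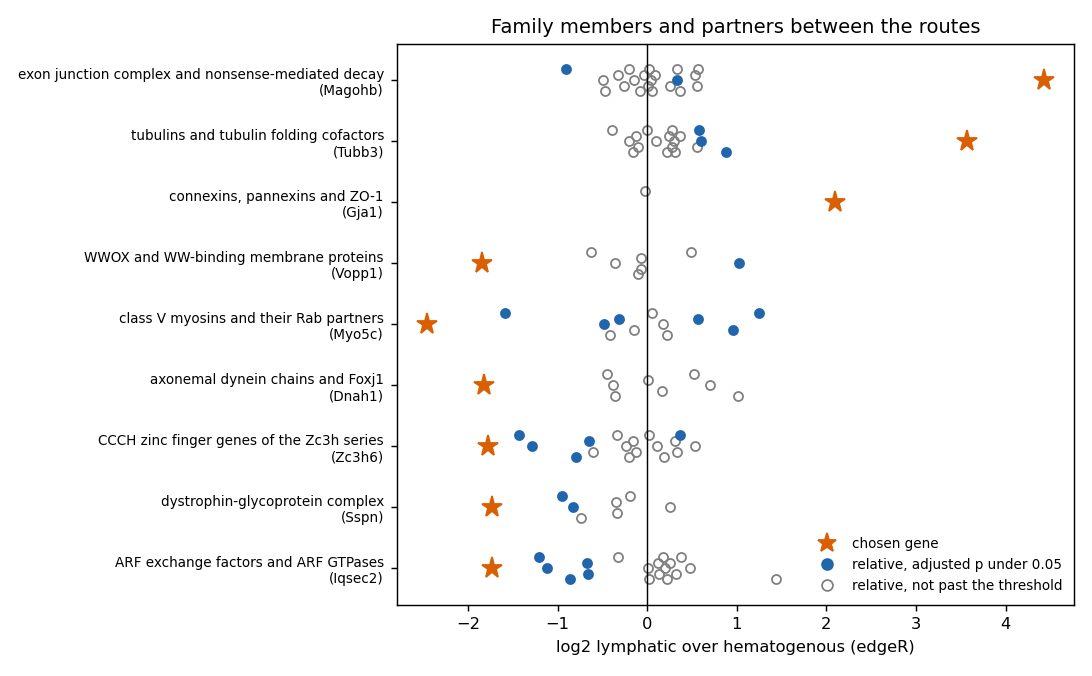
Log2 of lymphatic over hematogenous libraries (edgeR, horizontal axis) for the tested genes of the 9 lists, filled where the adjusted p was under 0.05, with the listed gene of each row as a star. The relatives lie between −1.58 for Rab27a and 1.43 for Psd4, and the stars between −2.45 for Myo5c and 4.42 for Magohb.

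Among 21 exon junction and decay genes, all tested, 5 were higher and 1 lower in lymphatic than in culture libraries, and 2 were higher and 2 lower in hematogenous than in culture libraries. Their median log2 difference was 0.11 for lymphatic over culture, 0.19 for hematogenous over culture and 0.03 between the routes, where 1 was higher and 1 lower in lymphatic. The calls made 28.6%, 19.0% and 9.52% of the list, against 26.4%, 27.8% and 22.3% of all tested genes. Rbm8a, the partner that forms a dimer with MAGOH proteins, averaged 311 ± 144 CPM in lymphatic and 184 ± 8.74 CPM in culture libraries (SD, n = 4 each, log2 0.75 ± 0.219, edgeR adjusted p = 0.0211), a call lost in 4 alternative fits, among them those without culture 2, culture 3 or culture 4. Without lymphatic 4 the difference was log2 0.36 and still called. Rbm8a was not called between the routes (log2 0.57 ± 0.218, adjusted p = 0.0778). Smg6, the endonuclease of decay, was higher in hematogenous than in culture libraries (log2 0.83 ± 0.182, adjusted p = 0.00323) and lower in lymphatic than in hematogenous libraries (log2 −0.90 ± 0.181, adjusted p = 0.00323). Eif4a3, the helicase of the complex, was not called, at log2 0.22 and 0.17 from culture.

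Of 18 tested tubulin and cofactor genes, 4 were lower than culture in each lymph node group, and 1 was higher in the lymphatic and 0 in the hematogenous group. The median log2 difference was 0.04, −0.06 and 0.26 in the same order of comparisons, and 3 genes were higher in lymphatic than in hematogenous libraries. The calls made 27.8%, 22.2% and 16.7% of these genes, against 26.4%, 27.8% and 22.3% of all tested genes. Tubb2b, another beta-tubulin of neurons, averaged 40.1 ± 11.8 CPM in lymphatic, 21.6 ± 4.50 in hematogenous and 144 ± 10.8 in culture libraries. It fell in both groups (log2 −1.84 ± 0.202, edgeR adjusted p = 1.67e-05, and −2.72 ± 0.211, adjusted p = 4.08e-07) and was higher in lymphatic than in hematogenous libraries (0.88 ± 0.203, adjusted p = 0.00723). Tuba1a, an alpha-tubulin, fell in both groups (log2 −2.18 ± 0.215, adjusted p = 6.72e-06, and −2.18 ± 0.220, adjusted p = 4.85e-06), to 9.78 ± 2.81 and 9.87 ± 2.58 CPM, against 44.3 ± 3.65 CPM in culture. Tubb5, the main beta-tubulin of dividing cells, was not called in any comparison. None of these 18 genes was called in opposite directions from culture, a call too rare for its absence here to be read.

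Of 22 connexin, pannexin and ZO-1 genes, 1 was tested and 9 had 0 counts in every library. The tested gene, Panx1, which forms single-membrane channels, averaged 9.43 ± 1.78 CPM in lymphatic, 9.58 ± 1.32 in hematogenous and 11.0 ± 1.47 in culture libraries and was not called in any comparison. Among 7 tested genes of the list around WWOX, 1 was higher and 4 lower in lymphatic, and 0 higher and 3 lower in hematogenous libraries than in culture. These calls made 71.4% and 42.9% of the list, against 26.4% and 27.8% of all tested genes, with no test of that difference. The medians over the comparisons were −0.58, −0.47 and −0.07. Wwox was not called (log2 −0.13 and −0.03 from culture), Wbp2 fell in both groups (log2 −1.10 ± 0.169, edgeR adjusted p = 2.97e-04, and −0.74 ± 0.169, adjusted p = 0.00418), and so did Shisa8 (−2.88 ± 0.291, adjusted p = 8.57e-06, and −3.37 ± 0.323, adjusted p = 3.10e-06). Shisa5 was higher in lymphatic than in hematogenous libraries at 116 ± 42.5 against 56.6 ± 9.26 CPM (log2 1.03 ± 0.212, edgeR adjusted p = 0.00381).

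The list of class V myosins and their Rab partners had 3 genes higher and 3 lower in lymphatic than in hematogenous libraries, of 11 tested (54.5%, against 22.3% of all tested genes, with no test of that difference), and a median of 0.05. Rab27a, which tethers secretory granules, averaged 3.27 ± 0.501 CPM in lymphatic, 9.83 ± 1.16 in hematogenous and 2.93 ± 1.27 in culture libraries (log2 −1.58 ± 0.252 between the routes, edgeR adjusted p = 7.22e-04). Myo5b went the other way, at 2.87 ± 0.682 CPM in lymphatic and 1.26 ± 0.574 CPM in hematogenous libraries (log2 1.24 ± 0.347, edgeR adjusted p = 0.0205, and adjusted p = 0.0609 in a fit of these 8 libraries alone). Myo5a, the class V myosin next to Myo5c on the chromosome, averaged 224 ± 92.2 CPM in lymphatic, 297 ± 14.1 in hematogenous and 327 ± 29.98 in culture libraries and was not called in any comparison.

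Of 8 tested axonemal dynein genes, Dnah8 was the only gene called (12.5%, against 26.4% and 27.8% of all tested genes), higher than culture in both groups. It averaged 7.47 ± 2.16 CPM in lymphatic, 9.51 ± 2.46 in hematogenous and 0.510 ± 0.302 in culture libraries (log2 3.87 ± 0.388, edgeR adjusted p = 7.91e-06, and 4.23 ± 0.39, adjusted p = 2.06e-06), with no call between the routes. Foxj1, the factor that switches on genes of motile cilia, averaged 0.667 CPM in lymphatic, 0.740 in hematogenous and 0.483 in culture libraries and was not called. Of 17 CCCH genes, all tested, 1 was higher and 4 lower in lymphatic than in culture libraries, and 1 higher and 1 lower in hematogenous than in culture libraries. Between the routes 1 was higher and 4 lower in lymphatic libraries. The medians were −0.07, 0.06 and −0.15. The calls made 29.4%, 11.8% and 29.4% of the list, against 26.4%, 27.8% and 22.3% of all tested genes. Zc3h12d, an RNase-like gene of lymphocytes, fell in both groups (log2 −3.27 ± 0.196, edgeR adjusted p = 8.39e-08, and −1.84 ± 0.185, adjusted p = 4.85e-06) and was lower in lymphatic than in hematogenous libraries (−1.43 ± 0.190, adjusted p = 2.12e-04), at 7.18 ± 1.09, 19.4 ± 5.64 and 68.9 ± 2.30 CPM in lymphatic, hematogenous and culture libraries.

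The dystrophin-glycoprotein list, to which Sspn belongs, had 7 tested genes, of which 2 rose and 3 fell in lymphatic and 3 rose and 1 fell in hematogenous libraries against culture (71.4% and 57.1%, against 26.4% and 27.8% of all tested genes), with medians of −0.29 and −0.10. Between the routes 0 were higher and 2 lower in lymphatic (28.6%, against 22.3%), with a median of −0.35. Dag1, which encodes dystroglycan, fell in both (log2 −1.47 ± 0.175, edgeR adjusted p = 3.42e-05, and −1.12 ± 0.175, adjusted p = 2.36e-04), while the sarcoglycan gene Sgcb rose in both (1.00 ± 0.146, adjusted p = 1.95e-04, and 0.74 ± 0.148, adjusted p = 0.00169). Utrn, the gene of the dystrophin relative utrophin, was higher in hematogenous than in culture libraries (log2 1.13 ± 0.310, edgeR adjusted p = 0.0137), while its difference between lymphatic and culture libraries, log2 0.18 ± 0.309, was not called. Between the routes, Utrn was lower in lymphatic libraries (−0.95 ± 0.298, adjusted p = 0.0362), as was the dystrobrevin gene Dtna (−0.83 ± 0.275, adjusted p = 0.0450), calls that were lost in 8 and 13 alternative fits. Among 18 tested ARF genes, 3 were higher and 2 lower in lymphatic, and 4 higher and 3 lower in hematogenous libraries than in culture. Between the routes 5 were lower in lymphatic libraries, and the medians were −0.11, −0.07 and 0.13. The calls made 27.8%, 38.9% and 27.8% of these genes, against 26.4%, 27.8% and 22.3% of all tested genes. Iqsec1, of the same IQSEC family as Iqsec2, averaged 17.2 ± 4.39 CPM in lymphatic, 31.1 ± 2.76 in hematogenous and 44.9 ± 3.43 in culture libraries. It was lower than culture in both groups and lower in lymphatic than in hematogenous libraries (−0.86 ± 0.167, edgeR adjusted p = 0.00275). Cyth4, an exchange factor of blood cells, and Psd3 were also lower in lymphatic than in hematogenous libraries (log2 −1.12 ± 0.254, adjusted p = 0.00651, and −1.20 ± 0.295, adjusted p = 0.0103). Psd4 had 378 counts in lymphatic and 0 in culture libraries, at least 65.6-fold higher with a floor of 3 counts over the culture group. In hematogenous libraries it had 83 counts, at 1.83 ± 1.73 CPM, a level that differed widely between libraries.

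Magohb, Vopp1 and Sspn, 3 of the 9 genes, lie on chromosome 6, which holds 4.70% of tested genes. The number of listed genes on this chromosome was not tested, and nothing is read from it. The nearest tested protein-coding gene on each side, by gene order on the older build, gave 18 neighbours. Of these, 1 was higher and 3 lower in lymphatic than in culture libraries (22.2%, against 26.4% of all tested genes), 1 higher and 3 lower in hematogenous than in culture libraries (22.2%, against 27.8%), and 2 higher and 1 lower in lymphatic than in hematogenous libraries (16.7%, against 22.3%). None was called in both comparisons with culture in opposite directions, a call too rare for its absence here to be read. Ybx3, next to Magohb, averaged 461 CPM in lymphatic, 459 in hematogenous and 460 in culture libraries. Def8, next to Tubb3, averaged 54.3 CPM in lymphatic, 29.4 in hematogenous and 57.9 in culture libraries and was lower than culture in the hematogenous group (log2 −0.98 ± 0.108, edgeR adjusted p = 1.17e-05). Abcg2, a drug efflux pump gene next to Vopp1, was higher in lymphatic than in hematogenous libraries (log2 1.00 ± 0.147, adjusted p = 4.34e-04), the opposite of Vopp1. Itpr2, a calcium channel gene next to Sspn, was lower in lymphatic than in hematogenous libraries (−0.99 ± 0.177, adjusted p = 0.00158), as Sspn was. Against culture, Itpr2 was lower in the lymphatic group (log2 −1.29 ± 0.178, edgeR adjusted p = 1.24e-04). It was not called in the hematogenous group (−0.30 ± 0.175, adjusted p = 0.239), where Sspn was higher than culture.

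**Figure D4:**
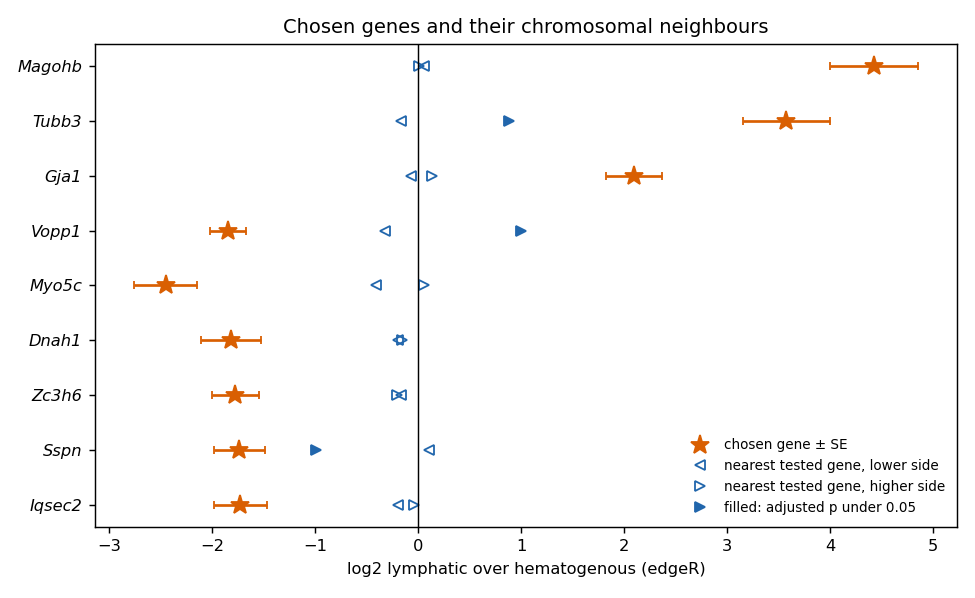
Log2 of lymphatic over hematogenous libraries (edgeR, horizontal axis) for each listed gene (star, ± SE) and its nearest tested protein-coding gene on either side (triangles, filled where the adjusted p was under 0.05). The neighbours lie between −0.99 and 1.00, with Def8, Abcg2 and Itpr2 past the threshold.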

How the data were processed

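Eµ-Myc lymphoma cells were profiled by stranded, single-end RNA-seq of 12 libraries, 4 per group. Per the submitters' processing notes, the tools were FastQC 0.11.9, Trimmomatic 0.39, HISAT2 2.1.0 and HTSeq 2.0.2, on build GRCm39. The authors deposited raw counts per Ensembl gene, 56748 IDs a library. The 5 HTSeq summary lines were left out, and reads without a gene made 30.3% to 36.5% of a library's reads. The counting strand setting is not given in the sources used here.

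All 12 libraries were fitted together by group in edgeR 4.0.16 (R 4.3.3), with TMM scaling, filterByExpr and the quasi-likelihood test, which left 13535 genes and 9 residual degrees of freedom. P-values were Benjamini-Hochberg adjusted over all tested genes, with a threshold of 0.05. The SE is the log2 difference divided by the square root of F and is approximate. The fit was tested on simulated data. Alternatives were DESeq2 1.42.0, limma-voom (limma 3.58.1), other scaling, no filter, fits of the compared groups alone, a replicate block, leaving out libraries, and the sum of Magoh and Magohb.

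The listed genes, the lists of relatives and the tests were chosen with earlier results of these data known. Named relatives were up to 3 called genes per list and comparison with the largest difference. Other relatives are named for their known role, chosen after their values were seen. Genes most alike were the top 2 by correlation of log2 CPM with a mean of at least 1 CPM. No libraries were duplicates. GRCm38 annotation (GENCODE M21 and RefSeq GRCm38.p6) gave names, gene order, exon lengths and the sequences shown. Some genes that these rules select are not reported here.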

Additional observations from a re-analysis of the deposited data

Results flagged for a closer look

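One value stood apart from its group. Vopp1 in hematogenous 4 was at 17.1 CPM, above 12.4, 12.8 and 13.01 CPM in hematogenous 1 to 3, by a gap that took most of the group's range. It was the only such value among 30 combinations of gene and group examined (Dixon's criterion). Chance alone flags about 1 combination in 20, so 1 among 30 is not unusual.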

How the results depend on the processing

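No log2 difference of the 9 genes changed sign under any alternative run. The 9 opposite calls became 6 without a filter on low counts, 7 with limma-voom, and 4 to 9 when 1 library was left out, the lowest without culture 1. In fits of the compared groups alone, 6344 genes were called for hematogenous against culture (3760 with all libraries) and 1734 between the routes (3012 with all libraries). Calls among relatives were then 23 for lymphatic against culture, 63 for hematogenous against culture and 13 between the routes, against 35, 30 and 24. Leaving out 1 library gave 2664 to 4908 called genes for lymphatic against culture, 3125 to 5930 for hematogenous against culture and 2002 to 4333 between the routes, each highest without lymphatic 4. Calls among relatives then ran from 22 to 43, 25 to 53 and 15 to 34. The cause was not tested. With the replicate number as a block, 8 of the 9 genes kept opposite calls, Dnah1 being lost, and 2960, 3341 and 2309 genes were called. Same-numbered libraries did not deviate together: 0 of 12 pairs had a correlation over 0.1 (−0.181 to 0.0919), and 0 libraries correlated best with their own number. Low counts limit Magohb, Tubb3 and Gja1 in hematogenous libraries, at 2 to 17, 8 to 12 and 14 to 27 counts. They also limit Myo5c, Dnah1 and Iqsec2.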
